A study of Homo sapiens with 54 samples.

Results

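The genes described here encode the proteins of the cytosolic ribosome. They were taken from a table of 60642 human gene symbols as those named RPL or RPS with a number (and an optional A, X or L), together with RPLP0, RPLP1, RPLP2 and RPSA. Of 81 symbols with such a name, 78 reached a mean of 10 TPM (a length-corrected share of all transcripts) and are the members, 32 of the small subunit and 46 of the large one. The 3 left out were RPL10L at a mean of 8.45, RPL3L at 0.0246 and RPL39L at 0.00839 TPM. All 78 are annotated as protein-coding, and the lowest value of any member in any tumor was 126 TPM. The rule left out pseudogene names and genes of low mean level, so neither fact tests the name. One member, RPS27L, is a paralog of RPS27 and not a core ribosomal protein. The genes are spread over 21 chromosomes, with 12 on chromosome 19 and 4 on X.

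RNA was sequenced from 54 tumors of LNCaP, an androgen-sensitive human prostate cancer line (clone FGC), grown under the skin of male NOD-SCID mice, 1 tumor a mouse. The mice lack functional lymphocytes but keep stroma, vessels and other blood cells. They were 5 to 6 weeks old on arrival, and age at collection is not given in the sources used here. PRE-CX tumors (n = 9) came from mice with intact testes after a mock operation and were taken at a volume of 1000 mm3. POST-CX tumors (n = 8) were taken at the nadir of serum PSA (prostate-specific antigen, a secreted product of androgen receptor activity) 1 week after castration. CRPC tumors (n = 10) had relapsed after castration, by PSA or by reaching the same volume. ENZS tumors (n = 12) came from castrated mice given enzalutamide, an androgen receptor antagonist, at 10 mg/kg by mouth on 5 days a week from the time PSA rose again, and were taken at a second PSA nadir. ENZR tumors (n = 15) had relapsed on the same drug in castrated mice. Tumor size, time since surgery and treatment differ together between the groups and cannot be told apart. All groups share 1 cell line, so the tumors are replicates of mice and not of patients. Levels are given below as TPM rescaled so that the human genes of a tumor sum to 1000000. As deposited, the human genes summed to between 12.1% and 97.5% of 1000000. The rest was taken to be mouse genes, which the table does not hold.

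A ribosome is built from ribosomal RNA and a fixed set of proteins, most of them present once per particle, so the genes are among the most highly expressed of any dividing cell. Their mRNAs typically begin with a run of pyrimidines at the cap, the 5′ terminal oligopyrimidine (TOP) tract, through which mTOR signaling and the protein LARP1 control their translation and stability. In prostate cancer cells the androgen receptor, MYC and mTOR are all known to bear on ribosome production.

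The transcript starts of the members are shown because this tract is the feature that the rule for choosing them did not use. A start was counted as TOP when its first base was C and its next 4 bases were each C or T, read on the transcript's strand only, at any start listed in RefSeq on GRCh38.p14. Of 63 members with a listed start, 46 (73.0%) had the motif, against 1404 (5.14%) of 27305 genes. The other 15 members were not in the table of starts. Each line gives 15 bases before the start and the first 15 bases of the transcript, with the tract in capitals. The first 5 are members with large falls or high levels in the results below.

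RPL14 (chr3:40457324-40457353, plus strand): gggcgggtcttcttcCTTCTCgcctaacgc
RPS19 (chr19:41860240-41860269, plus strand): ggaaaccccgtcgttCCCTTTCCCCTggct
RPS3 (chr11:75399503-75399532, plus strand): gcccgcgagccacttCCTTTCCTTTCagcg
RPS27 (chr1:153990747-153990776, plus strand): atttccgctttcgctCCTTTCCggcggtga
RPLP0 (chr12:120201097-120201126, minus strand): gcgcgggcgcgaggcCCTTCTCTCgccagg

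The next 4 had among the smallest falls in ENZS, RPS27L against CRPC, RPS15 against PRE-CX, and RPL22 and RPL41 against both. Of them RPL22 and RPL41 have the tract and RPS15 and RPS27L do not.

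RPL22 (chr1:6199581-6199610, minus strand): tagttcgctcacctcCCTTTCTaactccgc
RPL41 (chr12:56116618-56116647, plus strand): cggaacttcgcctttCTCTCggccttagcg
RPS15 (chr19:1438381-1438410, plus strand): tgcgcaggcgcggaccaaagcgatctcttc
RPS27L (chr15:63157463-63157492, minus strand): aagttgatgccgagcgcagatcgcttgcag

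The last is RPL32, whose listed start lacks the motif although its level fell by 1.04 on the log2 scale in ENZS against PRE-CX.

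RPL32 (chr3:12840436-12840465, minus strand): ggtgaggtgacccttgacctcctgggatcg

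The summed level of the 78 genes was lower in the enzalutamide groups than in the others. In PRE-CX tumors it made up 19.6% ± 4.83 (SD, n = 9) of all human TPM, with a lowest value of 13.6%, a median of 18.4% and a highest of 30.5%. In POST-CX tumors it was 17.0% ± 3.20 (n = 8), from 12.5% through a median of 17.0% to 23.6%. In CRPC tumors it was 18.8% ± 3.21 (n = 10), from 15.4% through 18.0% to 26.4%. These 3 groups overlapped over most of their range. In ENZS tumors the sum was 11.5% ± 2.34 (n = 12), from 7.04% through 11.9% to 14.2%, and in ENZR tumors 13.0% ± 2.96 (n = 15), from 8.73% through 12.9% to 18.8%. All 12 ENZS tumors lay below the lowest CRPC tumor, and 8 of the 12 lay below the lowest PRE-CX tumor. Of the 15 ENZR tumors, 12 lay below the lowest CRPC tumor and 12 below the lowest PRE-CX tumor. ENZR and ENZS overlapped, with 3 ENZR tumors above the highest ENZS one. Both subunits moved together, since large-subunit genes had 1.42 ± 0.0569 (SD, n = 54) times the summed TPM of small-subunit genes and group means ran from 1.41 to 1.43. Since TPM is a share of a fixed total, a fall of genes that make up so much of it raises the rest, and the median of all tested genes is therefore given beside each result. In bulk tumors fewer cancer cells of a kind and less RNA per cell cannot be told apart.

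**Figure D1:**
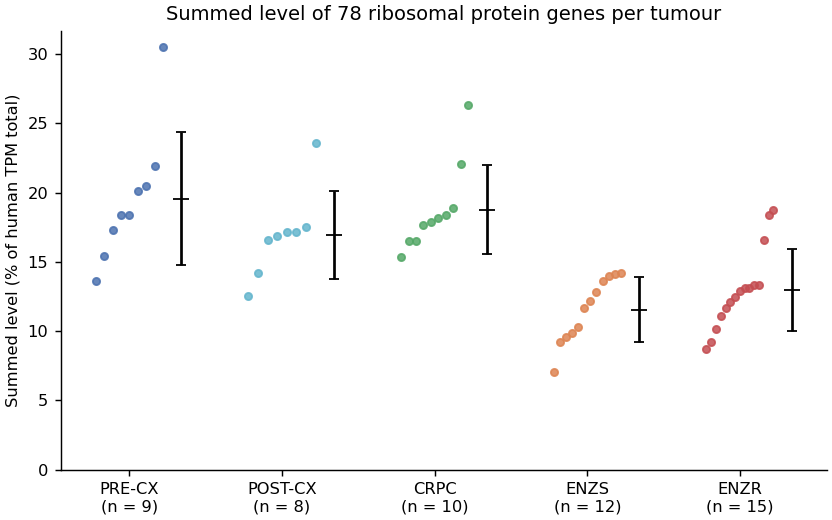
Summed level of the 78 ribosomal protein genes, as a percent of each tumor's human TPM total (vertical axis), in the 5 groups (horizontal axis). Points are tumors and bars are the group mean and SD. All 12 ENZS tumors sit at or under 14.2%, below the lowest CRPC tumor at 15.4%, while PRE-CX, POST-CX and CRPC overlap.

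Levels differed widely among the members. RPS27, a zinc-finger protein of the small subunit, was highest at a mean of 6609 TPM over all tumors, followed by RPL41, a peptide-sized protein of the large subunit, at 5359 and RPS18 at 5255. RPL28 at 629, RPL22 at 388 and RPS27L at 260 TPM were lowest. Between tumors of a group the genes varied together. In a principal component analysis of the log2 values after subtracting group means, the first component held 78.1% of the variance and 77 members had loadings of 1 sign on it. The exception was RPS27L, a gene known as a p53 target. The second component held 5.64%. In each group 1 tumor or more was the highest or lowest for most members. PRE-CX mouse 111 was the highest of its group for 75 members and PRE-CX mouse 53 the lowest for 67. POST-CX mouse 18 was highest for 74 and POST-CX mouse 91 lowest for 64. CRPC mouse 47 was highest for 64 and CRPC mouse 29 lowest for 47, and ENZS mouse 49 was lowest for 73. In ENZR mouse 98 was lowest for 51, and no tumor was highest for more than 35. The share of mitochondrially encoded genes was the lowest of the group in PRE-CX mouse 111 (9.19%) and CRPC mouse 47 (10.2%), and the highest in POST-CX mouse 91 (26.7%) and ENZS mouse 49 (26.2%). It was at neither end of its group in PRE-CX mouse 53 (17.3%), POST-CX mouse 18 (15.4%), CRPC mouse 29 (17.8%) or ENZR mouse 98 (14.2%). The part of this in the levels was not tested in single tumors. Only 27.9% of the deposited TPM of POST-CX mouse 91 was human.

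**Figure D2:**
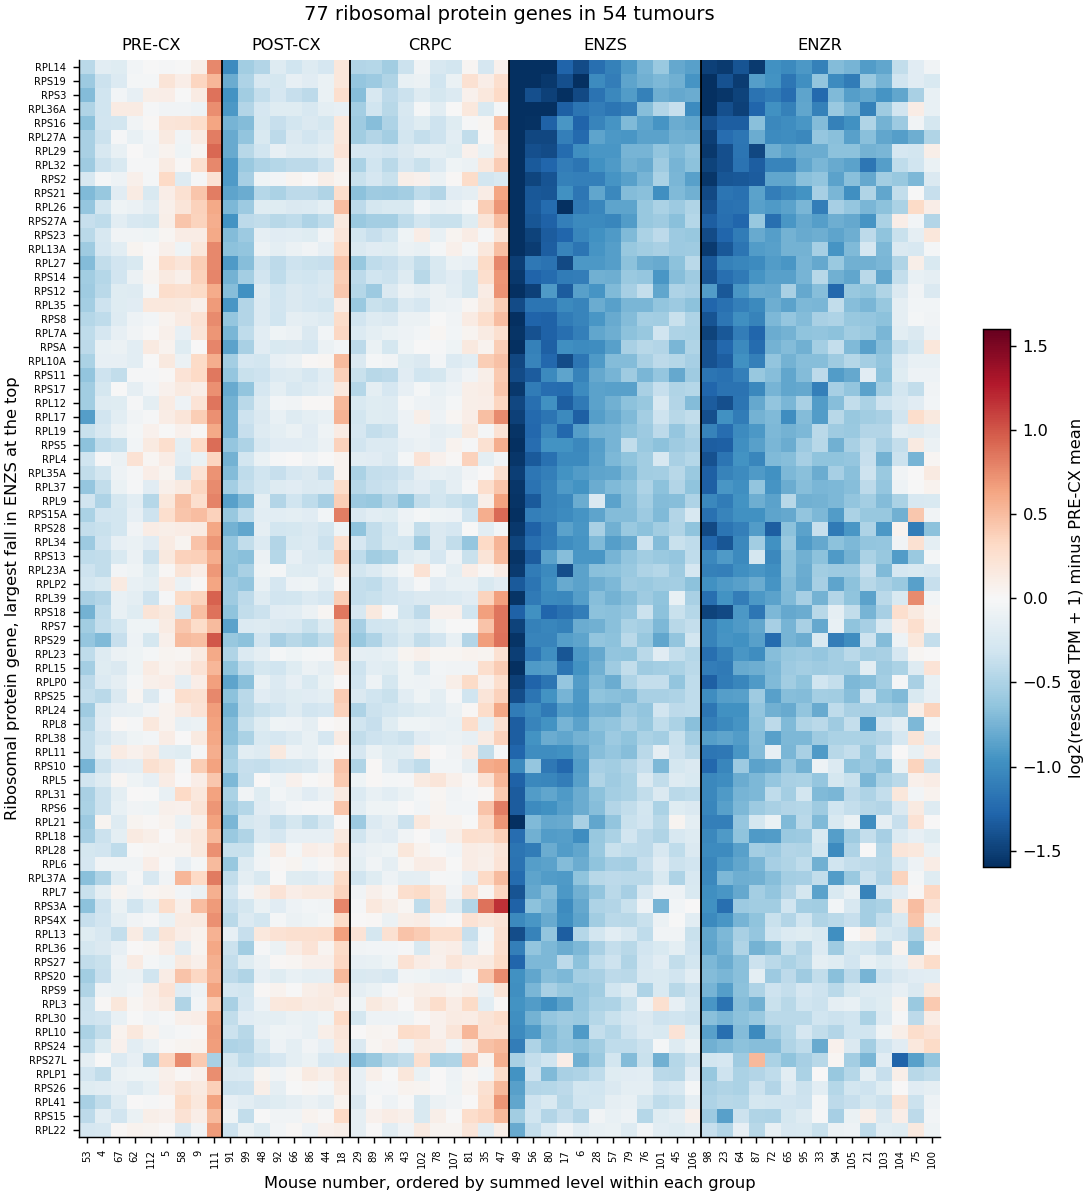
Heat map of 77 of the 78 genes (rows, ordered by their difference between ENZS and PRE-CX) in 54 tumors (columns, ordered by summed level within each group). Color is log2(rescaled TPM + 1) minus the PRE-CX mean of the gene, blue for lower and red for higher. Columns are mostly blue in ENZS and in most of ENZR, with single genes above the PRE-CX mean. PRE-CX mouse 111 is red for nearly all genes, and the row of RPS27L, blue in that tumor, departs from those around it.

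Castration alone was compared first. At the PSA nadir none of the 78 genes passed an adjusted p of 0.05 against PRE-CX by limma in either direction, and 11 had an unadjusted p under 0.05, all lower. Of all 17593 genes tested, 20.6% were called higher and 5.62% lower in this comparison. The median member differed by -0.22 on the log2 scale and 76 of 78 differences were below 0. The median of all genes tested was on the other side of 0, at 0.16. RPS21, a small-subunit protein, went from a median of 2155 TPM in PRE-CX (lowest 1236, highest 3547) to 1452 in POST-CX (1118 to 2435). The ranges overlapped widely and the fitted difference of -0.46 ± 0.19 (SE) had a limma adjusted p of 0.061. RPL32 differed by -0.44 ± 0.18 and RPS27A, which is made as a fusion with ubiquitin, by -0.42 ± 0.18. RPL13 at 0.16 ± 0.17, RPL7 at 0.09 ± 0.15 and RPLP1 at 0.00 ± 0.11 were at the other end. The count was sensitive to single tumors and to scaling. It was 8, all lower, when each tumor was centered on its own median gene, where 10.2% of all genes were called higher and 14.4% lower. It was 4 without PRE-CX mouse 4, 5 without PRE-CX mouse 53 and 6 without POST-CX mouse 18. The shares of all genes called in these single-tumor runs were not recorded, so their counts cannot be set against a background.

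After relapse from castration no member passed the test. In CRPC against PRE-CX limma called 0 members, 1 had an unadjusted p under 0.05, and the median difference was -0.04, against 0.08 for all genes. Of all genes, 14.2% were called higher and 5.87% lower. RPL9 differed by -0.30 ± 0.17, RPL27A by -0.29 ± 0.14 and RPS21 by -0.28 ± 0.18, while RPL10, which completes the large subunit late in its assembly, differed by 0.19 ± 0.15 and RPS3A and RPL13 by 0.14 each. In CRPC against POST-CX limma again called 0 members, with 1 at an unadjusted p under 0.05. Only 0.00568% of all genes were called higher and 0.0568% lower there. The median member differed by 0.14 and 77 of 78 differences were above 0, against a median of -0.07 for all genes. On the TPM as deposited these medians were 0.45 and 0.17. RPL21 at 0.32 ± 0.19, RPL10 at 0.30 ± 0.16 and RPS24 at 0.30 ± 0.14 were highest, and RPL13 at -0.02 ± 0.17, RPLP1 at 0.02 ± 0.11 and RPL36 at 0.03 ± 0.12 lowest.

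ENZS was compared with CRPC, in which castrated tumors relapsed without the drug. All 78 differences were below 0, and 77 of 78 genes were called lower. The background was 6.41% of all genes called lower and 31.4% called higher by limma at an adjusted p under 0.05. With tumors centered on their median gene, 13.9% of all genes were lower and 11.2% higher, and 78 members fell. The median member differed by -0.71 on the log2 scale, while the median of all genes was above 0, at 0.21. Small-subunit genes had a median difference of -0.73 and large-subunit genes of -0.70. For 40 of the 78 every ENZS tumor lay below every CRPC tumor, which held for 0.864% of all genes tested. On the TPM as deposited, before rescaling to a human total, 40 members passed, all lower. There 2.69% of all genes were called lower and 6.37% higher.

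RPS19, RPS3 and RPL14 were among the members with large falls. RPL14, a large-subunit protein, had lowest, median and highest levels of 1016, 1229 and 1571 TPM in CRPC and of 312, 674 and 988 TPM in ENZS. The groups did not overlap, and ENZS stood at 0.519 times the CRPC level (log2 difference -0.95 ± 0.16 (SE), limma adjusted p = 3.4e-05). RPS19, which small-subunit assembly needs and which is mutated in Diamond-Blackfan anemia, went from 618, 878 and 1147 TPM in CRPC to 242, 456 and 575 in ENZS. All 12 ENZS tumors were again below all 10 CRPC tumors, at 0.488 times their level. RPS3, which lines the mRNA entry channel, went from 975, 1327 and 1952 TPM to 453, 714 and 909, or 0.496 times the CRPC level, with no overlap.

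The genes of the stalk, where elongation factors dock, all fell, and differences among their falls were not tested. RPLP0 went from a median of 3345 TPM in CRPC (2817 to 4308) to 2195 in ENZS (1235 to 2675), a fall of 0.76 ± 0.14. RPLP2 went from 1493 TPM (1273 to 1676) to 1007 (665 to 1166), a fall of 0.59 ± 0.10. RPLP1 went from 1512 TPM (1382 to 1841) to 1133 (778 to 1349), a fall of 0.44 ± 0.10. No stalk gene overlapped between the groups. RPL5 and RPL11, which bind 5S ribosomal RNA and can restrain MDM2 when they are free of the ribosome, fell by 0.77 ± 0.13 and 0.60 ± 0.13. RPL5 had no overlap, while 10 of 12 ENZS tumors were below the CRPC range for RPL11. RPS6, the substrate of S6 kinase downstream of mTOR, went from a median of 3016 TPM (2759 to 5478) to 2058 (1228 to 2712), without overlap. RPSA, which is also known as a laminin receptor, fell by 0.86 ± 0.15, again with every ENZS tumor below every CRPC tumor.

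Members on X fell too. RPS4X, which escapes X inactivation, fell by 0.63 ± 0.13, RPL10 by 0.66 ± 0.14 and RPL39, a small protein near the exit tunnel, by 0.68 ± 0.17. The testis-type paralogs of the last 2, RPL39L and RPL10L, were among the 3 genes under the level needed for membership. RPL10L did not share the fall, with a mean of 7.67 TPM in CRPC (0.651 to 15.3) and 15.4 in ENZS (7.84 to 31.0). Its ranges overlapped, and no test of it is given here. RPS27, the highest member, went from a median of 7979 TPM in CRPC (6704 to 9042) to 5495 in ENZS (3037 to 6437), a fall of 0.60 ± 0.12, and RPS27A fell by 0.72 ± 0.16.

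The smallest changes were those of RPL22, RPS27L and RPL41. RPL22, an RNA-binding protein that is not needed for translation itself, had a median of 425 TPM in CRPC (370 to 478) and 371 in ENZS (239 to 404). Only 5 of 12 ENZS tumors were below the CRPC range, and the fall was 0.22 ± 0.09 with a limma adjusted p of 0.040. This call was lost on the TPM as deposited, without the mitochondrial genes and with no filter on low genes. RPL41 went from a median of 5769 TPM (4970 to 9633) to 4789 (3324 to 5420), a fall of 0.35 ± 0.11, with 8 of 12 ENZS tumors below the CRPC range. RPS27L was the member that did not pass. Its median was 229 TPM in both groups (190 to 456 in CRPC and 179 to 332 in ENZS), and the difference was -0.27 ± 0.15 with a limma adjusted p of 0.15.

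**Figure D3:**
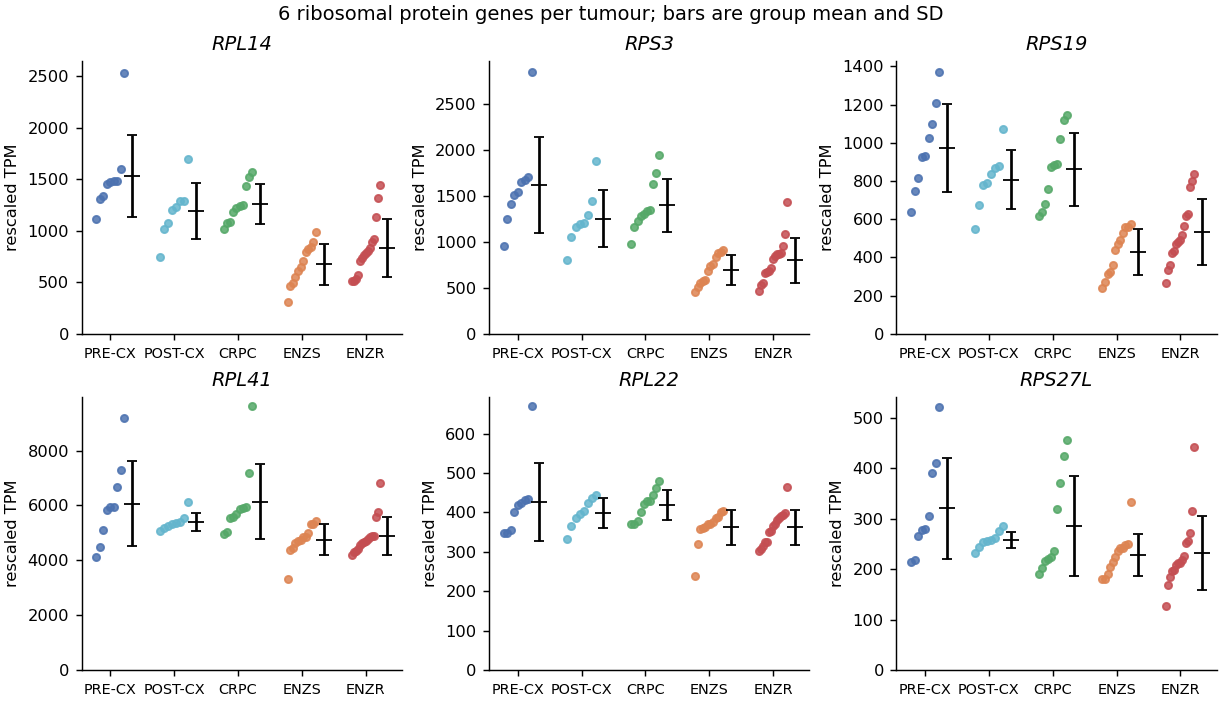
Rescaled TPM (vertical axis, linear, from 0) of 6 members in the 5 groups (horizontal axis), with tumors as points and the group mean and SD as bars. RPL14, RPS3 and RPS19 had no overlap between ENZS and CRPC, while RPL41, RPL22 and RPS27L overlapped.

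Against PRE-CX all 78 genes were lower in ENZS, where limma called 13.6% of all genes lower and 47.5% higher. After centering on the median gene these shares were 28.3% and 26.6%, and all 78 members were still lower. The median member differed by -0.80, the median of all genes by 0.29, and 12 members fell by at least 1 on the log2 scale. Every ENZS tumor was below every PRE-CX tumor for 17 of 78 members, against 2.94% of all genes. Among the large falls were those of RPL14 (1.21 ± 0.17 (SE)) and RPS19 (1.21 ± 0.17), and RPS3 fell by 1.19 ± 0.16. RPL14 went from a lowest, median and highest level of 1110, 1474 and 2533 TPM in PRE-CX to 312, 674 and 988 in ENZS. RPL27A went from 1499, 2082 and 3795 TPM to 650, 1129 and 1263, and had the smallest adjusted p of the members (1.7e-09, limma). Neither gene overlapped between the groups. RPL22 fell by 0.22 ± 0.09, RPS15 by 0.26 ± 0.11 and RPL41 by 0.33 ± 0.11. Without PRE-CX mouse 111, POST-CX mouse 18 and CRPC mouse 47, which had the highest sums of their groups and were picked after seeing the data, 76 members passed (13.7% of all genes lower and 44.3% higher), and RPL22 (-0.13) and RPS15 (-0.20) did not.

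The low level was also present at relapse on the drug. In ENZR against PRE-CX all 78 differences were below 0. Limma called 77 of 78 genes lower, against 13.8% of all genes called lower and 44.6% called higher. After centering, 27.7% of all genes and 78 members were lower and 24.2% of all genes higher. The median member differed by -0.63 and the median of all genes by 0.25. RPS3 went from a median of 1550 TPM in PRE-CX (962 to 2853) to 813 in ENZR (464 to 1433), a fall of 1.01 ± 0.15 (SE), with 13 of 15 ENZR tumors below the PRE-CX range. RPL14 fell by 0.91 ± 0.16. RPLP2 was the 1 gene for which every ENZR tumor, between 867 and 1308 TPM, lay below every PRE-CX tumor, between 1376 and 2625 TPM, which held for 0.784% of all genes. RPL22 fell by 0.22 ± 0.08, RPL41 by 0.28 ± 0.10 and RPS15 by 0.29 ± 0.10. RPS3A, a small-subunit protein with a median of 2581 TPM in PRE-CX (1759 to 4457) and 1900 in ENZR (1196 to 3883), did not pass at -0.38 ± 0.18 (limma adjusted p = 0.062). Both comparisons with PRE-CX use the same 9 PRE-CX tumors, so they are not independent of each other. Without the 3 tumors of highest sum 71 members passed, where 13.9% of all genes were lower and 40.9% higher.

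Relapse on enzalutamide was then compared with its nadir. In ENZR against ENZS limma called 0 members, 2 had an unadjusted p under 0.05, and 0% of all genes were called in either direction. The median member differed by 0.17, against -0.04 for all genes. RPS19 was highest with a difference of 0.30 ± 0.15, from a median of 456 TPM in ENZS (242 to 575) to 489 in ENZR (265 to 839). RPL14 differed by 0.29 ± 0.15, while RPS28, RPS15 and RPS27L were lowest at -0.03, -0.03 and -0.01. The step from nadir to relapse was also compared between drug and castration. Of the 78 members 0 differed by limma and 0 had an unadjusted p under 0.05. The median difference of the steps was 0.03 for the members and 0.03 for all genes. Of all genes, 0.0966% had a higher and 0.102% a lower step. On the TPM as deposited the member median was -0.49 and that of all genes -0.36.

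**Figure D4:**
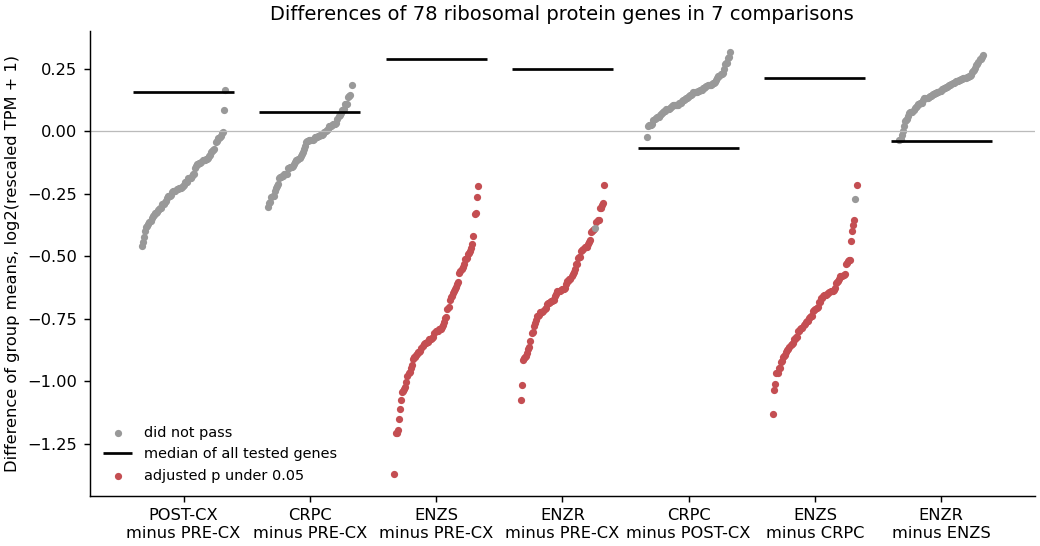
Differences of group means on the log2(rescaled TPM + 1) scale (vertical axis) for the 78 genes in 7 comparisons (horizontal axis). Red points passed an adjusted p of 0.05, gray points did not, and black bars are the median of all 17593 genes tested. All members lie below the bar in ENZS minus PRE-CX, ENZR minus PRE-CX and ENZS minus CRPC, where 78, 77 and 77 of them passed. Most also lie below it in POST-CX minus PRE-CX and CRPC minus PRE-CX, where 0 passed.

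Values of cell type markers and of the mitochondrial genes are given here for each group. The 9 luminal prostate markers were all present, with a summed level of 7866 TPM in PRE-CX, 4572 in POST-CX, 7837 in CRPC, 6390 in ENZS and 5313 in ENZR. Of 14 markers of host stroma and blood, 7 passed the filter on low genes. The host is mouse and these values are of human genes only, so they do not measure host cells directly. The human genes of all 14 summed to between 9.74 and 22.3 TPM in PRE-CX and 14.9 and 41.9 in POST-CX. The sums were 17.3 to 105 in CRPC, 23.3 to 300 in ENZS and 14.4 to 97.7 in ENZR. Of the 7 that passed the filter, 5 were called higher and 1 lower in ENZS against PRE-CX. COL3A1, a fibroblast collagen, had a mean of 0.924 TPM in PRE-CX and 20.8 in ENZS, and VWF, an endothelial protein, 4.85 and 2.13 TPM. PECAM1, CDH5, PTPRC, HBB and HBA1 had group means of at most 0.0574 TPM. Their part in the result was not tested. Mitochondrially encoded genes took 15.5% ± 3.27 (SD, n = 9) of the human total in PRE-CX and 15.7% ± 2.62 (n = 10) in CRPC. The other means were 18.4% ± 4.75 for POST-CX (n = 8), 18.5% ± 3.40 for ENZS (n = 12) and 18.7% ± 4.40 for ENZR (n = 15). In POST-CX 0 members were called and the median member differed from PRE-CX by -0.22. The part of the mitochondrially encoded genes in the member levels was not tested. With those genes taken out of the total, 76 members were called lower in ENZS than in CRPC (5.89% of all genes lower and 39.5% higher). Against PRE-CX, 76 were then called lower in ENZS (12.4% and 51.6%) and 75 in ENZR (12.1% and 49.6%). The 1131 pseudogenes of ribosomal proteins, which can share reads with the members, had 3.68 TPM for every 100 TPM of the members, with group means from 3.64 to 3.74.

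Genes of related function from ENZS against CRPC are given beside the members. Counts of list genes that fell or rose are of genes called by limma. They are to be read against the 6.41% of all genes called lower and the 31.4% called higher. Of 21 other TOP and elongation genes, 20 fell and 0 rose, with a median difference of -0.62. EIF3F and EIF3E, subunits of the initiation factor eIF3, fell by 0.52 and 0.83, the elongation factor subunit EEF1G by 0.62 and the nucleolar chaperone NPM1 by 0.78. The TOP motif was found at the start of 13 of 15 of these genes with a listed start. Of 7 genes for paralogs, fusions and ribosome-bound proteins, 6 fell. RACK1, a scaffold on the small subunit, fell by 0.73, FAU, made as a fusion with a ubiquitin-like protein, by 0.37, and RPL22L1, the paralog of RPL22, by 0.76. Thus RPL22L1 fell by more than RPL22, although the difference between them was not tested.

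Of 31 genes for the assembly of ribosomes, 9 fell and 3 rose, with a median of -0.16. FBL, the methyltransferase of box C/D particles, fell by 0.84, its partner NOP56 by 0.46 and MYC, a transcription factor of ribosome genes, by 1.44, while SBDS, which frees the large subunit for joining, rose by 0.62. Of 16 genes of mTOR and TOP control, 1 fell (6.25%) and 3 rose (18.8%), shares no larger than those of all genes. The gene that fell was EIF4EBP1, an inhibitor of cap-dependent initiation, by 0.76. RICTOR of mTOR complex 2 rose by 0.40, TSC1 by 0.33 and the stress sensor SESN2 by 0.72.

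Of 78 mitochondrial ribosomal protein genes, whose products form a separate ribosome for the mitochondrial genome, 34 fell and 1 rose, with a median of -0.18. MRPL12 fell by 0.58 and MRPS2 by 0.54. The TOP motif was found in 6 of the 69 with a listed start. In 2 other large complexes few genes passed. Of 37 proteasome genes, 3 fell and 2 rose, with a median of 0.01, with the assembly chaperone PSMD10 up by 0.22 and the catalytic subunit PSMB5 down by 0.23. Of 37 genes of respiratory complex I, 3 fell and 0 rose, with a median of -0.04, and NDUFB10 fell by 0.37. Against PRE-CX, ENZS had 17 of 21 TOP and elongation genes, 15 of 31 assembly genes and 45 of 78 mitochondrial ribosome genes called lower. Of all genes 13.6% were called lower there. In CRPC against PRE-CX, 0, 0 and 6 genes of these lists were called lower, and 6 of 78 (7.69%) is near the 5.87% of all genes.

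**Figure D5:**
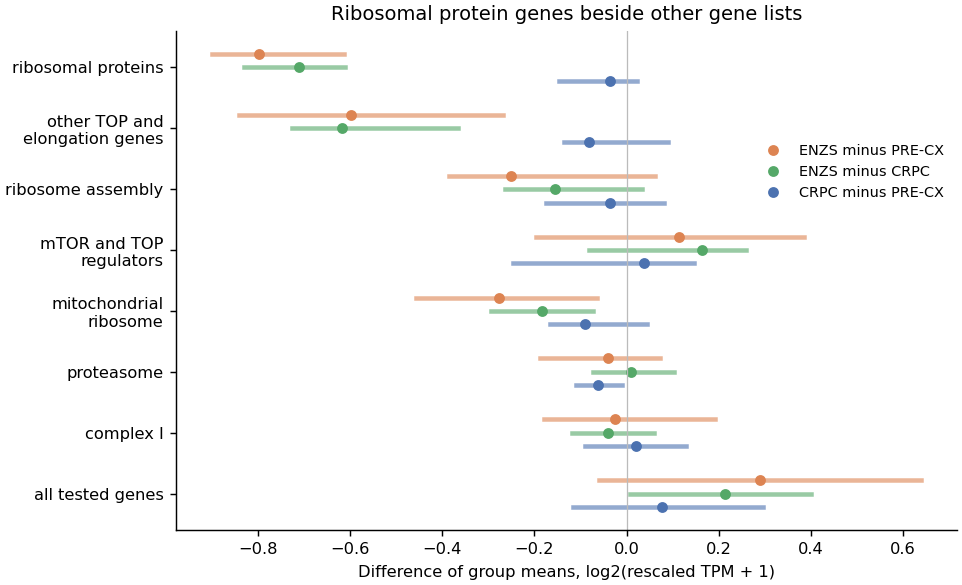
Median (point) and range from the lower to the upper quartile (bar) of the log2 differences in 3 comparisons (colors) for the ribosomal protein genes, 6 other gene lists and all tested genes (rows). The ribosomal proteins and the other TOP and elongation genes lie farthest to the left in both comparisons of ENZS, with medians of -0.80 and -0.60 against PRE-CX, while all tested genes lie at 0.29.

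The members with and without the motif had like medians. In ENZS against CRPC the 46 genes with the motif had a median of -0.68 (from -1.04 to -0.22) and the 17 without it -0.65 (from -0.92 to -0.27). Against PRE-CX the medians were -0.80 and -0.79. The members without a motif included RPL32, RPL9, RPS28 and RPS4X, and absence says only that these letters are not at the listed start. Across the 78 genes, which share the same libraries, Spearman's rho between a gene's mean level and its difference was -0.12 in ENZS against CRPC and 0.03 in ENZS against PRE-CX.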

How the data were processed

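RNA from 54 xenografts was sequenced as paired-end reads from a stranded poly(A) library. Per the submitters' processing notes, reads passed FastQC 0.11.9, Trim Galore 0.6.5, STAR 2.7.2b and RSEM 1.3.3, on a combined human (GRCh38) and mouse (GRCm38) reference. The authors deposited human genes only, as TPM computed by RSEM, with no counts, so depth per gene is unknown and no counting interval is given. RSEM divides reads shared with pseudogenes by its model, and part of a member's reads may be assigned to them.

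Each tumor was rescaled to a human total of 1000000, and log2(rescaled TPM + 1) of the 17593 genes with at least 1 TPM in at least 8 tumors was fitted over all 5 groups with limma 3.58.1 (trend, R 4.3.3), with Benjamini-Hochberg adjustment over all genes. Fold changes are on that scale, which understates changes of low genes. The fit was tested on simulated data. Tumors are separate mice without pairing, and no batch or date is given in the sources used here.

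Members and lists were chosen with earlier results of these data known. The genes named were a fixed panel of 16, the 3 members with the highest and the 3 with the lowest difference in each comparison, the 3 highest and 3 lowest levels, and up to 4 genes per list by adjusted p. Of the genes so chosen, 1 member and 1 list gene are not reported here, and both stay in the counts. Transcript starts and positions are from RefSeq on GRCh38.p14. Alternatives were the deposited TPM, centering, totals without members or mitochondrial genes, a pseudocount of 0.1, no filter, sample weights, leaving out 4 tumors with a human total under 70%, and leaving out each tumor.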

Additional observations from a re-analysis of the deposited data

Results flagged for a closer look

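Each group of 4 to 10 tumors was searched for a highest or lowest tumor far from the nearest other one by Dixon's criterion, for 96 values (the summed level, the ratio of the subunits and 30 members in 3 groups), of which 35 were flagged. Chance flags about 1 in 20, and since the members vary together these flags are not independent of each other.

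PRE-CX mouse 111 gave 20 of them, all as the highest of its group. Its summed level was 30.5% of the human total, against 21.9% in the next tumor. Among the stalk genes RPLP0 reached 5508 TPM, RPLP1 2542 TPM and RPLP2 2625 TPM. Of the small subunit, RPS3 was at 2853 TPM, RPS4X at 1901 TPM, RPS6 at 5059 TPM, RPS24 at 8028 TPM, RPS27 at 10842 TPM, RPS28 at 1484 TPM and RPSA at 3089 TPM. Of the large subunit, RPL7 was at 4019 TPM, RPL10 at 2627 TPM, RPL11 at 1589 TPM, RPL14 at 2533 TPM, RPL21 at 3969 TPM, RPL22 at 671 TPM, RPL27A at 3795 TPM, RPL36 at 2729 TPM and RPL39 at 10730 TPM. The same tumor had the highest human share of its group, 97.5%, and the lowest mitochondrial share, 9.19%.

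POST-CX mouse 18 gave 10 flags. Its summed level was the highest of its group at 23.6% of the human total, and its large-subunit level was the lowest of the group at 1.29 times the small-subunit level. It was also highest for RPL9 at 3432 TPM, RPL39 at 7324 TPM, RPL41 at 6132 TPM, RPS3A at 4759 TPM, RPS4X at 1421 TPM, RPS6 at 4212 TPM, RPS21 at 2435 TPM and RPS27A at 1943 TPM.

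In CRPC, mouse 47 was highest for RPL5 at 1907 TPM, RPL9 at 4078 TPM, RPL41 at 9633 TPM and RPS21 at 3123 TPM, and mouse 81 for RPL10 at 2374 TPM. Leaving out PRE-CX mouse 111, POST-CX mouse 18 and CRPC mouse 47 together was chosen after seeing the data. It left 77 members called lower in ENZS than in CRPC, where 6.6% of all genes were called lower and 27.4% higher.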

How the results depend on the processing

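The falls in ENZS and ENZR kept their direction under every alternative run. The members called in ENZS against PRE-CX numbered 59 to 78 and in ENZR against PRE-CX 68 to 78. Leaving aside the single-tumor runs, 7.4% to 28.3% and 7.31% to 27.7% of all genes were called lower there. In ENZS against CRPC the members called numbered 40 on the TPM as deposited (2.69% of all genes lower) and 76 to 78 otherwise (2.63% to 13.9%). The cause of this drop was not tested. For POST-CX against PRE-CX, where 0 members were called, 8 passed after centering (10.2% of all genes higher, 14.4% lower). With sample weights 7 passed (35.3% higher, 7.76% lower), and without the 3 tumors of highest sum 1 passed (16.6% and 4.76%). When single tumors were left out 0 to 6 passed, with the highest count without POST-CX mouse 18. For no single-tumor run was the share of all genes recorded, so those counts have no background beside them. For CRPC against PRE-CX 3 passed with sample weights, where 24.9% of all genes were called higher and 10.3% lower. Of the medians, 3 moved: centering made that of ENZS against PRE-CX -1.09, where the median of all genes shifts by -0.29, and the TPM as deposited made that of CRPC against POST-CX 0.45 and turned that of the difference of the relapse steps to -0.49, where the median of all genes shifts by 0.24 and -0.39. Of the 88 called differences of single named members, 37 lost their call on the TPM as deposited and none reversed under any alternative. No paired analysis was possible because no mouse number occurs in 2 groups. Values without counts limit precision to the spread between tumors, and 8 to 15 mice a group gave a median standard error of 0.14 for ENZS against CRPC on the log2 scale.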
